A study of Mus musculus with 2 samples.

Results

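A list of 40 cell division genes was followed in the thymus of newborn mice: the mitotic cyclins with their kinase Cdk1, the spindle kinases, the subunits of the kinetochore, the spindle checkpoint, the kinesins of the spindle, and proteins of mitotic chromosomes. All 40 were found among the 43346 mouse genes of the tables by their symbols in GENCODE M21 (GRCm38). Membership follows the symbols alone, with no threshold on the measured levels, although the list was made with earlier results of these data known. The thymus is the organ where T cells mature. Tissue came from animals of strain B6NCrl (given as C57/Bl6 in the notes on the pups) on postnatal day 0, with no treatment or allele named. Total RNA longer than 200 nt was taken from pup 6 (replicate 1) and pup 7 (replicate 2) of 1 mother, and 13 pg of it, labelled as 1 cell-equivalent, went into each library. The labels call the assay single cell RNA-seq, but the RNA was that of whole tissue, and both pups are listed under 1 donor. There is 1 group of 2 libraries, so no test between conditions was possible and no p-value is given. Pup, RNA handling and library cannot be told apart in the spread between the replicates.

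Replicate 1 held 25999043 and replicate 2 held 31902773 expected counts in mouse genes, where an expected count is an estimated number of reads that need not be whole. Levels are in TPM, transcripts in each 1000000, which corrects each gene's count for transcript length and was rescaled here to 1000000 over mouse genes. All 13 thymocyte markers were read in both libraries, with sums of 6063 and 6051 TPM. Markers of epithelium summed to 2988 and 3018 TPM, of mesenchyme to 1570 and 1335, of macrophages to 512 and 763, and of endothelium to 290 and 121, the last with Kdr and Tek at 0 in both libraries. By share of mouse counts the order of the pups reversed for mesenchyme (0.224% and 0.233%) and macrophages (0.0441% and 0.0394%). Of 7 macrophage markers, 4 were higher in replicate 1, among them Adgre1 (2630 and 0 counts), and 3 in replicate 2, among them Tyrobp (798 and 3801). Epithelial markers split 4 to 5, with Foxn1 at 0 and 1129 counts and Psmb11 at 7440 and 1562. Erythroid markers summed to 3527 and 9145 TPM, with Klf1 and Gata1 at 0 in both libraries. In whole tissue, fewer dividing cells and less of a transcript per dividing cell cannot be told apart.

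A cell enters mitosis when Cdk1 bound to a B-type cyclin is switched on by Cdc25 phosphatases. Kinetochores then attach chromosomes to spindle microtubules, and the spindle checkpoint holds back the anaphase-promoting complex until all of them are attached. When Cdc20 activates that ubiquitin ligase, securin and cyclin B are destroyed, sister chromatids part, and the midzone of the spindle guides the cut between the daughter cells. In the thymus, immature thymocytes divide rapidly between the steps in which they rearrange their receptor genes.

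Most of the mitotic genes were read in both pups, and together they summed to near-equal TPM. Of the 40, 36 were read at 1 or more counts in both libraries (90.0%), beside 19.0% of all mouse genes and 32.1% of protein-coding genes. The remaining 4, Cdc25b, Bub1, Ttk and Cdca2, had counts in replicate 2 alone. The limit of 1 count takes in Ndc80, with 1 count in replicate 1. With 4 or more counts asked of both libraries 35 genes were left, and with 10 or more counts, or 1 or more TPM, 33. The shares of all mouse genes at these limits were not counted. Summed over the 40 genes, the level was 5956 TPM in replicate 1 and 5958 in replicate 2 (5957 ± 1.52, SD, n = 2), or 0.720% and 0.763% of mouse counts. By mean level, 14 of them ranked among the first 1000 protein-coding genes, another 19 among the first 5000, and 7 below. Mean levels ran from 0.00534 TPM for Bub1 to 453 TPM for Birc5, with a median of 84.4. Cyclin-CDK genes (9 genes) gave the largest sum of the 8 roles, 2462 and 2517 TPM (2490 ± 39.2, SD, n = 2). The spindle pole kinases with Tpx2 (3 genes) gave the smallest, 296 and 162 TPM (229 ± 94.5, SD, n = 2). Sums depend on the number of genes in a role. By the median of mean levels the spindle checkpoint (5 genes) was lowest, at 46.0 TPM against 76.5 for the spindle pole genes.

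**Figure D1:**
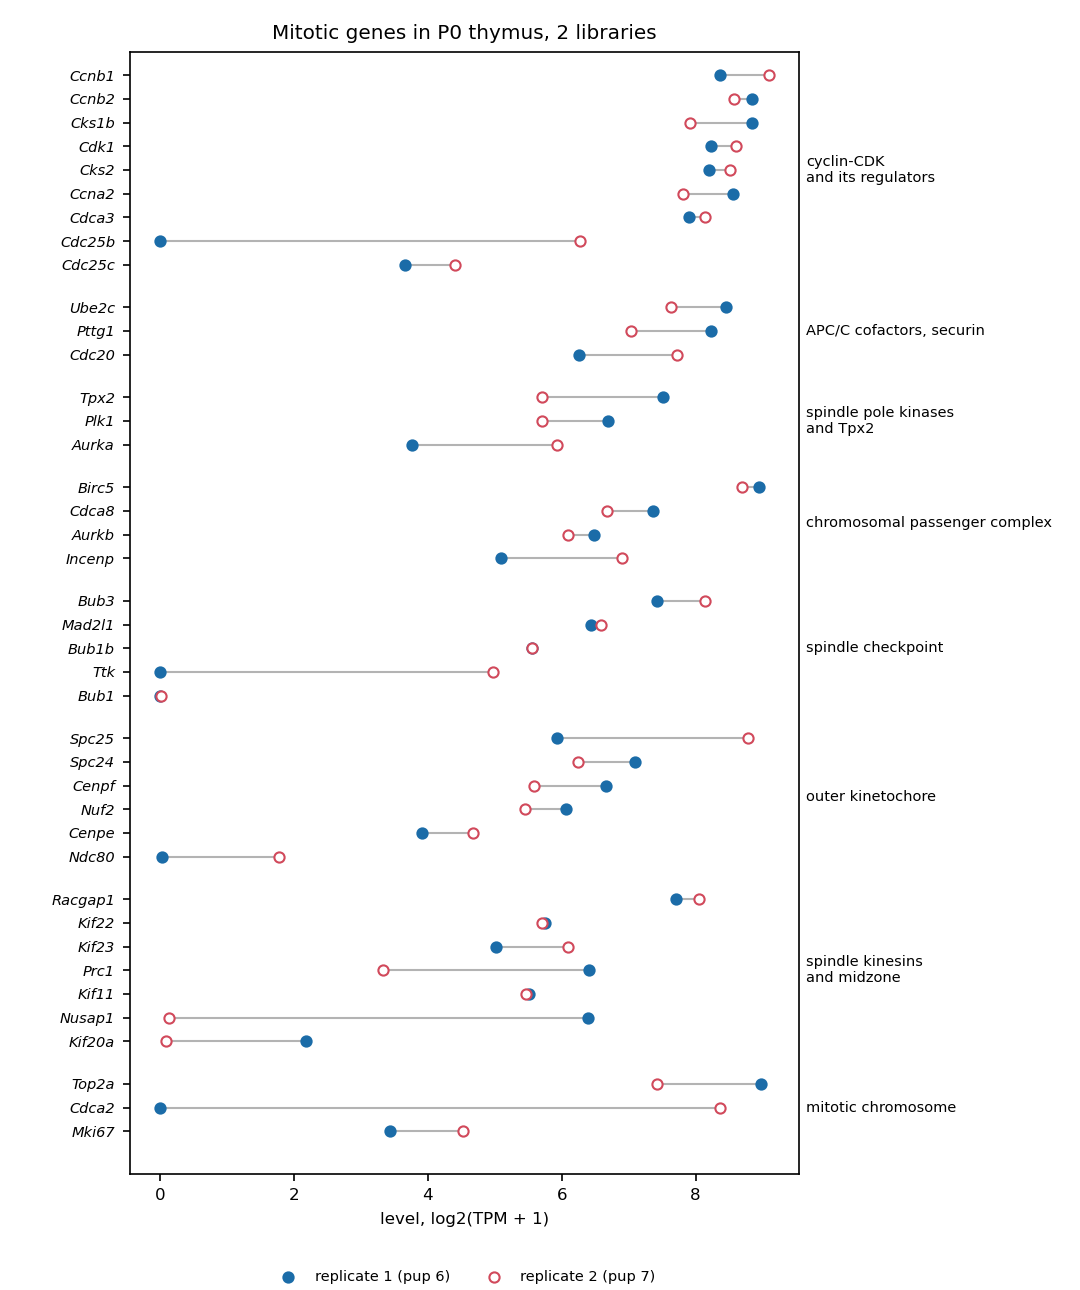
Level of each of the 40 mitotic genes on a log2(TPM + 1) axis, grouped by role, with a filled point for replicate 1 and an open point for replicate 2 and a line between them. Cyclin-CDK genes other than Cdc25b and Cdc25c lie close together at the high end, and Cdca2, Cdc25b and Ttk run from 0 in replicate 1 to 330, 76.4 and 30.3 TPM in replicate 2.

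The equal sums hid unequal members. A mean of at least 100 counts was reached by 38 of the genes, all but Bub1 and Ndc80. Of these 38, 3 were 4-fold or more higher in replicate 1 (Kif20a, Prc1 and Nusap1), where 21.5% of the 9341 mouse genes at that count were. Another 5 were 4-fold or more higher in replicate 2 (Cdc25b, Aurka, Ttk, Spc25 and Cdca2), beside 29.4% of those mouse genes. The ratio throughout is log2 of replicate 2 over replicate 1 after adding 1 TPM, which understates differences of low genes, and with 1 library from each pup it has no replicate check. At 3 or fewer counts in 1 library were 3 of the 38 (Cdc25b, Ttk and Cdca2), against 35.1% of the mouse genes. The median log2 ratio of the 38 was -0.02, and it was 0.17 over the 9341 genes. The median size of the ratio, without its sign, was 0.84 for the mitotic genes and 2.07 for all.

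Differences between the pups were smaller for genes with more reads. From 10000 to 30000 mean counts, 0 of 5 mitotic genes and 2.43% of mouse genes passed 4-fold. From 3000 to 10000 counts it was 2 of 19 and 18.6%, and from 1000 to 3000 counts 4 of 11 and 50.7%. The median size of the log2 ratio was 0.94 for the 19 mitotic genes at 3000 to 10000 counts, against 0.86 for all genes there and 1.03 for 7 spike-ins, RNAs added in known amounts. At 10000 to 30000 counts it was 0.74 for the 5 mitotic genes (Ccna2, Ccnb1, Ccnb2, Racgap1 and Top2a), 0.46 for all genes and 0.20 for 6 spike-ins. Below these ranges the mitotic genes had the smaller median, 0.85 against 2.05 at 1000 to 3000 counts (11 genes) and 2.09 against 3.79 at 100 to 1000 counts (3 genes). Spike-ins in these 2 ranges had medians of 0.50 (6 spike-ins) and 5.90 (9 spike-ins). Taken on counts without length correction, the median at 3000 to 10000 counts was 0.84 for the mitotic genes and 0.91 for all genes, so the order there depended on the scale. On that scale the medians were 1.34 and 2.16 at 1000 to 3000 counts, and 3.20 and 4.29 at 100 to 1000 counts.

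**Figure D2:**
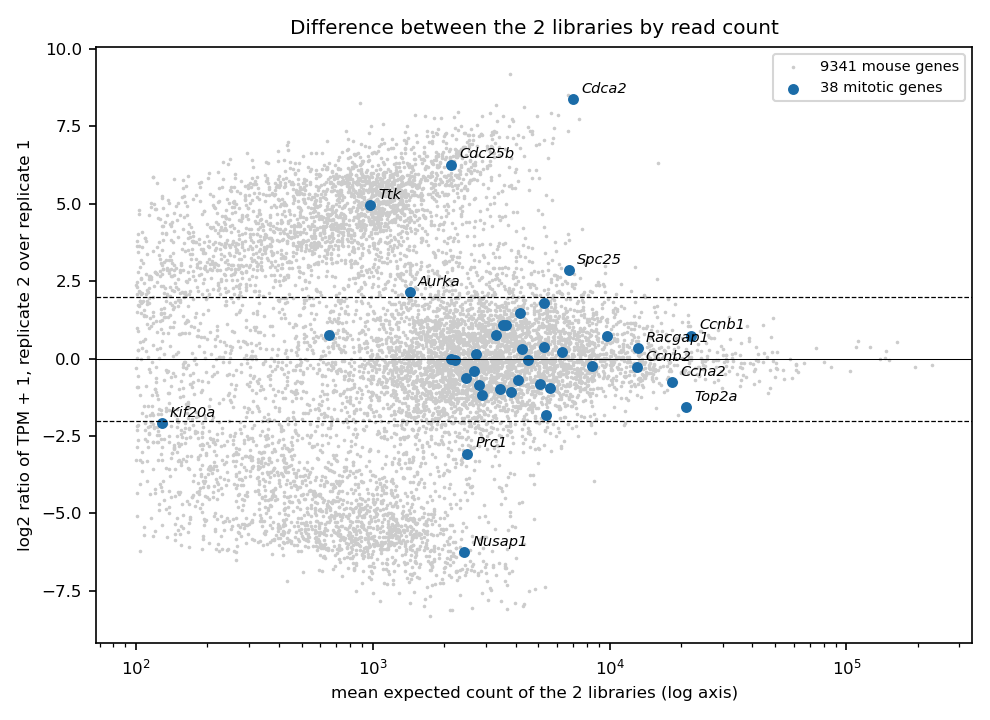
Log2 ratio of TPM + 1, replicate 2 over replicate 1, against the mean expected count on a log axis, for 38 mitotic genes (blue) among 9341 mouse genes (grey), with dashed lines at 4-fold. The grey cloud narrows as counts grow, and the 8 mitotic genes beyond the dashed lines all lie below 10000 mean counts.

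The promoters of these genes share short sequence elements that the list did not use. Many genes of late cell cycle are known to carry a CHR element (cell cycle genes homology region), read by the MuvB complex, and CCAAT boxes, read by NF-Y. RefSeq promoter windows of 250 bases before to 50 bases after the start (GRCm38.p6) were at hand for 32 of the 40 genes. A CHR element, searched as TTTGAA or TTCGAA on both strands, was found in 24 of the 32 (75.0%), beside 21.7% of 27025 genes and 20.2% of 17492 protein-coding genes with windows of the same length. CCAAT on either strand was found in 26 (81.2%), beside 41.1% of all genes, and 23 genes held both elements (71.9% against 9.65%). In 23 genes a CHR element lay within 50 bases of the start, before or after it, and 18 genes held 2 or more CCAAT boxes. These 2 features were not counted over all genes, so neither has a share to set beside it. In a window starting 150 bases upstream, 24 of the 32 had a CHR element, beside 13.7% of all genes. In Cdca8 a CHR element and a CCAAT box share 1 base. Neither motif was found for Birc5, Mad2l1, Nuf2, Nusap1 and Pttg1, which says only that these letters are not in that window.

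Promoters of 4 genes are given as examples, each as the 150 bases before the RefSeq start, 5′ to 3′ on the gene's strand, with CHR elements and CCAAT boxes (or their reverse complements TTCAAA and ATTGG) in capitals. They belong to the mitotic kinase Cdk1 (chr10:69352913-69353062, minus strand), the anaphase activator Cdc20 (chr4:118437344-118437493, minus), topoisomerase Top2a (chr11:99024190-99024339, minus) and the spindle motor Kif11 (chr19:37376232-37376381, plus), all in GRCm38.p6. They were chosen because a CHR element lies just upstream of the start in each: 15, 18, 23 and 19 bases away at its first base. They do not stand for the whole list. In many other genes the CHR element near the start lies after it, as in Aurka (from base 33) and Plk1 (from base 31).
Cdk1: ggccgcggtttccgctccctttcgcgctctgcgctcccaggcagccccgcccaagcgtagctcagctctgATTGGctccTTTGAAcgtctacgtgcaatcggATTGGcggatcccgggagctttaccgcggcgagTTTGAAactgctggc
Cdc20: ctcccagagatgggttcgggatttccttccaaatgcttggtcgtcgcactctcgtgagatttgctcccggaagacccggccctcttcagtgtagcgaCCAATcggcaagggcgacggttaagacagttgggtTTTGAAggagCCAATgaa
Top2a: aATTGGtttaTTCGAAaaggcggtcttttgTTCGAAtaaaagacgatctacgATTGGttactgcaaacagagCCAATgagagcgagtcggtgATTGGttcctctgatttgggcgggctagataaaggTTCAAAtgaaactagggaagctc
Kif11: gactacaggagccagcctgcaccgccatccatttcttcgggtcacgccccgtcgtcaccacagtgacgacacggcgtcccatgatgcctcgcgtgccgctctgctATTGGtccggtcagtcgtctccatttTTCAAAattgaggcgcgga

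**Figure D3:**
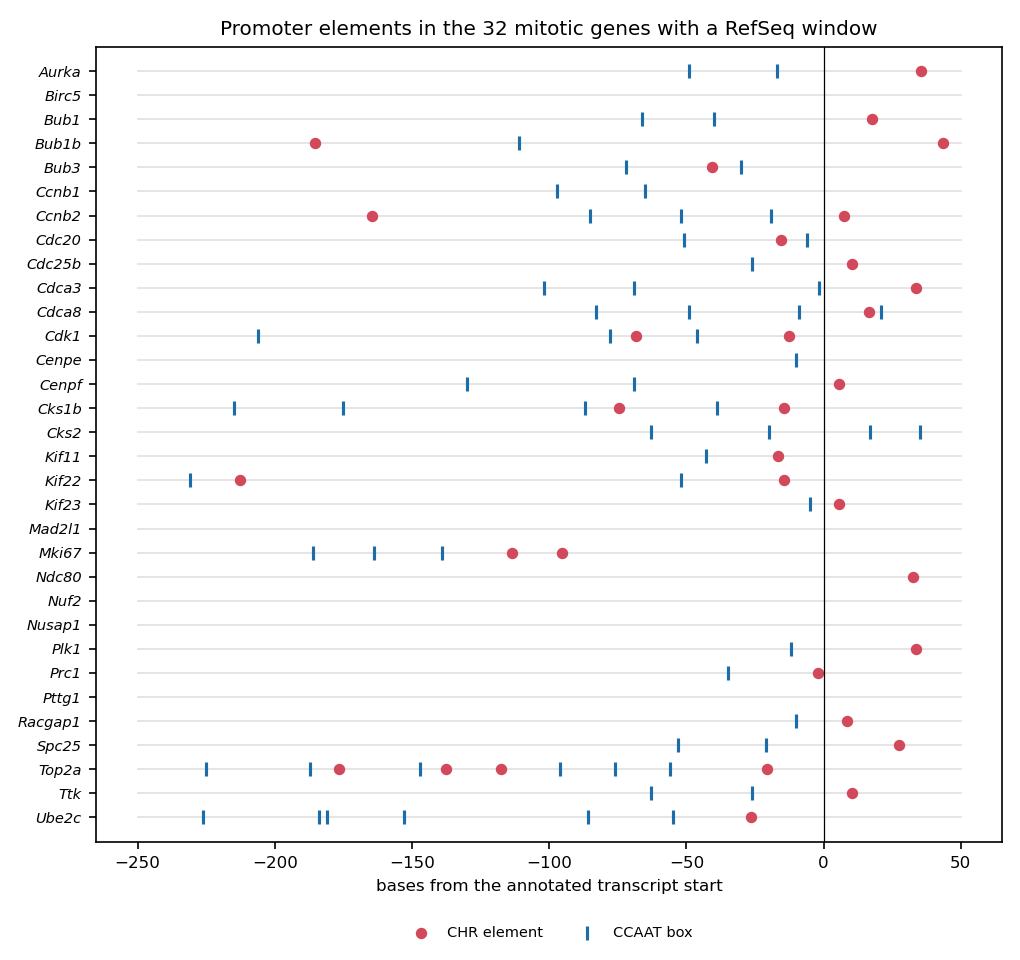
Position of each CHR element and CCAAT box in the promoter windows of the mitotic genes, as distance in bases from the RefSeq start. A CHR element lies within 50 bases of the start, before or after it, in 23 genes, a position not counted over all genes. Both motifs also occur further upstream, CHR elements to position -215 and CCAAT boxes to -233, both in Kif22.

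Genes with a CHR element were found at both ends of the range of levels, from Bub1 to Ccnb2 (418 TPM by mean level). Those with neither motif ran from 41.4 TPM for Nusap1 to 453 TPM for Birc5, so none was at the low end. Bub1, Ttk and Ndc80, among the lowest of the mitotic genes, each had a CHR element, and Birc5, the highest by mean level, had neither motif. These matches are a description of the letters, and no binding was measured here.

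Cdk1 and its regulators formed the role with the largest summed level, and Cdk1, its cyclins and Cks subunits had levels close to one another. Cdk1 itself (chr10:69335146-69352938, minus strand) stood at 299 TPM in replicate 1 and 389 in replicate 2 (344 ± 63.9, SD, n = 2). Much of that was not coding. The retained-intron transcripts Cdk1-203 and Cdk1-204 held 22.6% and 28.5% of it in replicate 1, and 17.7% and 32.8% in replicate 2. Cyclin B1, which carries Cdk1 into mitosis, gave 327 and 545 TPM (436 ± 155). Cyclin B2, its Golgi-associated relative, gave 458 and 378 TPM (418 ± 56.3). The pair thus changed places between the pups, with Ccnb2 above Ccnb1 in replicate 1 and below it in replicate 2. Ccna2, the cyclin of S phase and early mitosis, stood at 376 and 223 TPM. The small Cdk-binding subunits Cks1b (459 and 240 TPM) and Cks2 (293 and 364 TPM) lay in the same range. Across these 6 genes the highest level was 1.57 times the lowest in replicate 1 and 2.45 times in replicate 2, and in TPM every one of the 6 differed less than 2-fold between the pups.

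Some of these reads have more than 1 possible source. Of the 100-base stretches in the Ccnb1 transcript 28.6% occur in other genes too, mostly the pseudogene Ccnb1-ps, which was given 83.6 and 190 counts beside 14191 and 29990 for Ccnb1. For Cks2 the share was 23.8%, mostly with Gm15452, which was given 151 and 193 counts beside 3552 and 4985 for Cks2. The authors' estimate put the posterior SD of the count at 9.61 and 13.7 for Ccnb1, at 30.0 and 30.4 for Cks2, and at 32.8 and 29.7 for Ccna2. No other mitotic gene had a posterior SD of 1 count or more.

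The phosphatases that activate Cdk1 were far lower than the kinase they act on. Cdc25b had 0 counts in replicate 1 and 4266 in replicate 2, levels of 0 and 76.4 TPM. Set against the floor of 3 counts that a 0 allows, it was at least 1158-fold higher in replicate 2. Cdc25c stood at 11.6 and 20.3 TPM. Such bounds and the intervals given for counts cover counting error only, since reads without molecular identifiers are not independent molecules. Cdca3, an adaptor for destruction of the mitotic inhibitor Wee1, was close to the cyclins at 239 and 281 TPM (260 ± 29.8, SD, n = 2). Of this TPM the retained-intron transcript Cdca3-203 held 38.5% in replicate 1 and 0.420% in replicate 2.

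The genes that trigger anaphase were well expressed in both pups but did not vary together. Cdc20 stood at 75.2 and 210 TPM, higher in replicate 2. Ube2c, the ubiquitin-conjugating enzyme of the anaphase-promoting complex, stood at 350 and 197 TPM, higher in replicate 1. Pttg1, which encodes the securin that guards separase, stood at 299 and 130 TPM. Ube2c and Pttg1 therefore lay higher in replicate 1, opposite to Cdc20, and none of the 3 passed 4-fold. Their sum was 724 and 537 TPM (630 ± 132, SD, n = 2).

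The kinases of the spindle poles were less abundant than Cdk1. Aurka, which matures centrosomes and is activated by Tpx2, gave 453 and 2403 counts, or 12.6 and 59.7 TPM, a log2 ratio of 2.16 that passed 4-fold, though with 10 TPM added in place of 1 it was 1.63 and did not. Plk1, the polo kinase of mitotic entry and centrosome maturation, gave 102 and 51.3 TPM. Tpx2, the microtubule nucleator that binds Aurka, gave 181 and 51.1 TPM. Aurka was thus higher in replicate 2 and its activator in replicate 1.

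All 4 subunits of the chromosomal passenger complex were read in both pups without passing 4-fold. This complex corrects faulty attachments at the centromere and later works at the midzone. Birc5, the subunit also called survivin, was the highest of all 40 genes by mean level, at 492 and 414 TPM (453 ± 55.2, SD, n = 2). The kinase of the complex, Aurkb, stood at 88.8 and 67.4 TPM, and Cdca8, the subunit borealin, at 164 and 101 TPM. Incenp, the scaffold of the complex, was the exception in direction, at 33.0 and 118 TPM. The highest subunit exceeded the lowest 14.9 times in replicate 1 (Birc5 over Incenp) and 6.15 times in replicate 2 (Birc5 over Aurkb), so transcript levels within this complex were unequal in both pups.

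Checkpoint genes ranged from near-equal TPM in both pups to reads in 1 pup alone, and equal TPM did not always rest on equal reads. Bub3, which docks checkpoint proteins on the kinetochore, led with 170 and 280 TPM (225 ± 77.9, SD, n = 2). Mad2l1, the Mad2 protein that restrains Cdc20, stood at 86.1 and 95.2 TPM (90.7 ± 6.45), of which its coding transcript Mad2l1-202 took 450 and 2788 counts and the retained-intron Mad2l1-203 took 2219 and 6. Bub1b, encoding the BubR1 component of the checkpoint inhibitor, gave 46.1 and 45.9 TPM, but from 531 and 3746 counts, assigned to a short retained-intron transcript in replicate 1 and to the coding transcript in replicate 2. Ttk, the Mps1 kinase that starts the checkpoint signal, had 0 and 1939 counts (0 and 30.3 TPM) and was at least 526-fold higher in replicate 2. Bub1, the kinase that recruits other checkpoint proteins, had 0 counts in replicate 1 and 1 in replicate 2, under the floor of 3 counts, which is 0.115 and 0.0940 counts in each 1000000 mouse counts. Bub1 was therefore not detected above that floor in either library, while its partner Bub3 was among the 14 genes in the first 1000. Why Bub1 was not read was not tested.

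In the outer kinetochore the 4 subunits of the Ndc80 complex, which binds microtubule ends and is assembled in equal parts, had very unlike transcript levels. Ndc80 itself had 1 and 117 counts (0.0214 and 2.41 TPM), a ratio of counts per mouse count of 95.3 with a 95% counting interval of 16.8 to 3798. Its partner Nuf2 stood at 65.9 and 42.9 TPM. Spc24 stood at 136 and 74.8 TPM. Spc25 gave 1450 and 11981 counts, or 59.7 and 441 TPM, a log2 ratio of 2.86 that passed 4-fold. Nuf2 and Spc24 were higher in replicate 1 and Spc25 and Ndc80 in replicate 2, and in replicate 2 Spc25 exceeded Ndc80 183 times. Of the large kinetochore proteins, the motor Cenpe stood at 14.1 and 24.5 TPM and Cenpf at 99.8 and 46.8 TPM.

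Kinesins that push spindle poles apart or move chromosome arms were nearly equal in both pups. Kif11, the motor that separates the poles, gave 4291 and 4714 counts, or 44.5 and 43.3 TPM (43.9 ± 0.876, SD, n = 2). Kif22, which pushes on chromosome arms, gave 53.1 and 51.3 TPM (52.2 ± 1.26). These were among the closest agreements of the 40 genes, and both genes have no stretch of 100 bases in common with another gene.

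Genes of the midzone and the cleavage plane agreed less. Racgap1 and Kif23 form centralspindlin, which marks where the cell will divide. Racgap1 stood at 207 and 264 TPM (235 ± 40.6, SD, n = 2) and Kif23 at 31.3 and 67.6 TPM, so Racgap1 was 6.61 and 3.91 times as high as its partner. Prc1, the bundler of midzone microtubules, gave 4338 and 661 counts, or 83.7 and 9.10 TPM, a log2 ratio of -3.07. Nusap1, which binds spindle microtubules near chromosomes, gave 4833 and 6.10 counts (82.7 and 0.0961 TPM), a ratio of replicate 1 over 2 of 972 with a counting interval of 454 to 2695. Kif20a, the motor that brings the passenger complex to the midzone, gave 251 and 5.00 counts (3.54 and 0.0641 TPM), a ratio of 61.6 (interval 26.0 to 191). With 10 TPM added, the log2 ratio of this low gene was -0.43 and no longer passed 4-fold. These 3 make up the genes counted above as 4-fold or more higher in replicate 1.

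Each of those 3 genes overlaps a gene on the opposite strand. Exons of Prc1 and Rccd1 share 911 bases, those of Kif20a and Cdc23 1271 bases, and those of Nusap1 and Oip5 172 bases. No source used here says whether counting used strand. Cdc23 followed Kif20a, with 484 and 1.00 counts. Oip5 ran opposite to Nusap1, with 0 and 3959 counts, and Rccd1 had 0 and 1.00. Exons of 10 of the 40 genes (25.0%) overlap an exon of another gene, 9 on the opposite strand, beside 32.2% of the 9341 mouse genes. Among them are Ccna2 with Exosc9 (2817 and 1830 counts), Ube2c with Tnnc2 (5.00 and 173), Cdc20 with Elovl1 (2003 and 5.00), Cdca8 with 9930104L06Rik (1053 and 0), Cdc25b with Spef1 (287 and 0), Cdc25c with Gm3550 (0 and 0) and, on the same strand, Top2a with Gm23451 (0 and 0). The part of these overlaps in the ratios was not tested. Without the 10 genes, 0 of 28 were 4-fold or more higher in replicate 1 and 4 were in replicate 2, beside 21.4% and 29.4% of mouse genes.

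Proteins of the mitotic chromosomes reached 514 and 522 TPM in sum (518 ± 6.05, SD, n = 2), with a different leading gene by TPM in each pup. Top2a, the topoisomerase that untangles sister chromatids, gave 22357 and 19491 counts, or 504 and 170 TPM. Cdca2, which brings protein phosphatase 1 to anaphase chromatin, had 0 and 14021 counts, or 0 and 330 TPM, and was at least 3808-fold higher in replicate 2. Mki67, the coat protein of mitotic chromosomes used to mark dividing cells, stood at only 9.86 and 22.0 TPM. In TPM, Top2a thus made up most of the sum in replicate 1 and Cdca2 most of it in replicate 2. By counts Top2a was above Cdca2 in both libraries. The length assigned to Top2a was 2270 bases in replicate 1 and 5051 in replicate 2, which lowers its TPM in replicate 2. Mki67 ranked 6365th among protein-coding genes per length, although its long transcript (10075 bases) took 2011 and 5063 counts.

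**Figure D4:**
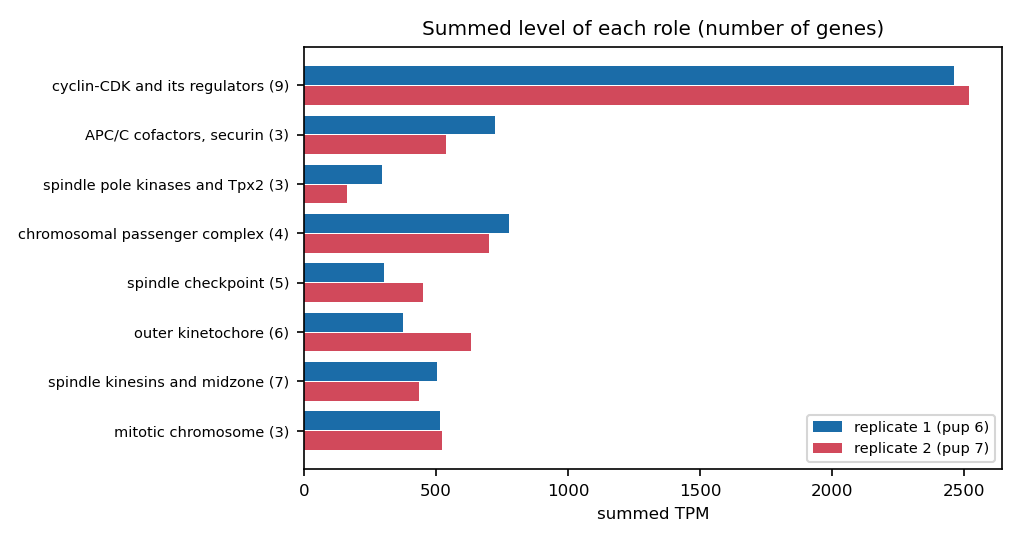
Summed TPM of each of the 8 roles in replicate 1 and replicate 2, with the axis starting at 0. Cyclin-CDK genes (2462 and 2517 TPM) and mitotic chromosome proteins (514 and 522 TPM) have near-equal sums, while the outer kinetochore (375 and 632 TPM) and the spindle pole genes (296 and 162 TPM) do not.

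For several genes the level depended on which transcript the authors' estimate assigned the reads to. Bub1b is the clearest case: its equal TPM hid a log2 ratio of 2.47 by counts, which passes 4-fold. In replicate 1 the retained-intron transcript Bub1b-202 (661 bases) took 99.9% of its TPM, and in replicate 2 the coding transcript Bub1b-201 (3668 bases) took 99.0%, so its length differed 5.48 times. Top2a differed by -1.56 in TPM but by -0.49 in counts. Its short transcript Top2a-207 (803 bases) led with 42.4% in replicate 1, and the coding Top2a-201 (5221 bases) held 96.2% in replicate 2. Tpx2 differed by -1.81 in TPM and -1.01 in counts, with the retained-intron Tpx2-205 leading in replicate 1 (57.6%) and the coding Tpx2-201 in replicate 2 (67.2%). Equal or unequal TPM of these genes therefore holds a change of assigned length as well as of reads.

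Across the 33 genes with 100 or more counts in both libraries, the ratios by TPM and by counts lay 0.3 or more apart in log2 for 7 (21.2%), beside 26.5% of 5281 mouse genes, a limit chosen after the values were seen. Beyond the 3 above these were Cdc20 (1.47 by TPM and 0.84 by counts), Cenpf (-1.08 and -0.62), Mad2l1 (0.14 and -0.23) and Racgap1 (0.35 and 0.71). Mad2l1 thus changed its sign with the length correction. The leading transcript, the one with the largest share of the gene's TPM, was the same in both libraries for 11 of 21 mitotic genes with a choice of transcripts (52.4%), beside 62.0% of 3825 mouse genes. In 7 of the 10 others, 1 of the leading transcripts was not protein-coding, Cdk1 among them, where the retained-intron Cdk1-204 (28.5%) led in replicate 1 and the coding Cdk1-202 (43.4%) in replicate 2. In Cdca3, Aurkb and Nuf2 both leading transcripts were coding, for example Nuf2-201 (98.4%) and Nuf2-202 (100%). Retained-intron transcripts still differed in share for Cdca3 and Aurkb. Cdca3-203 held 38.5% of the gene's TPM in replicate 1 and 0.420% in replicate 2 (3415 and 50 counts), and Aurkb-205 held 36.2% and 0.190% (513 and 2 counts).

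**Figure D5:**
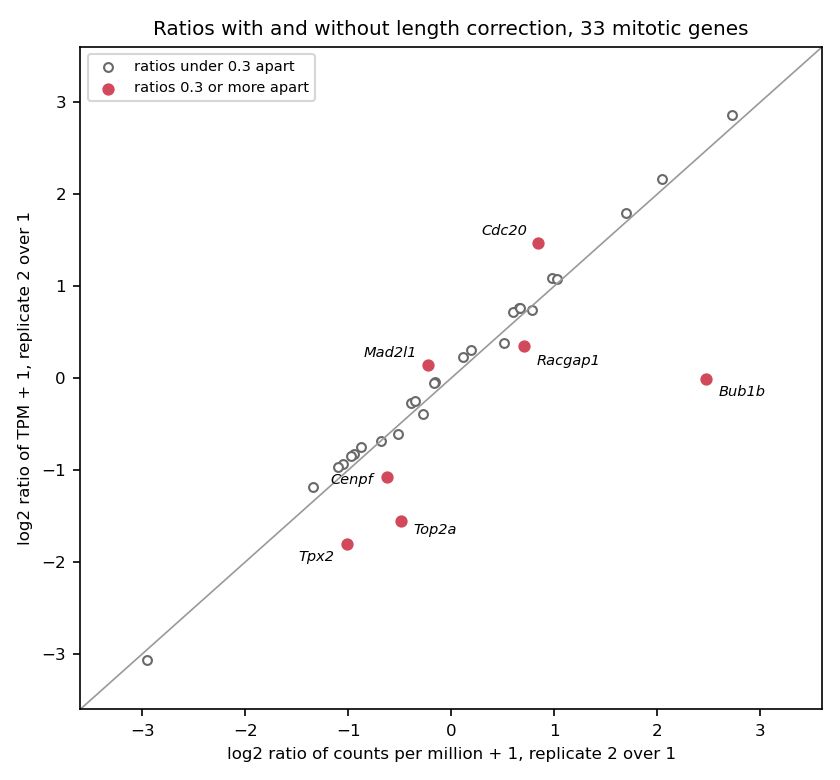
Log2 ratio of TPM + 1 against the log2 ratio of counts (scaled to 1000000 mouse counts, + 1), both replicate 2 over replicate 1, for the 33 mitotic genes with 100 or more counts in both libraries, with the line of equality. Most genes lie near the line, and Bub1b lies furthest from it, at 2.47 by counts and -0.01 by TPM.

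Further genes of mitosis were taken from 6 pathway lists. For comparison, of 21474 protein-coding genes 6887 were read in both libraries, 4146 in 1 and 10441 in neither. Of the 125 genes in the lists, 88 were read in both libraries, 31 in 1 and 6 in neither, and 110 reached a mean of 100 counts. Of these, 23 were 4-fold or more higher in replicate 1 and 24 in replicate 2, beside the 21.5% and 29.4% of the 9341 mouse genes, which are also the shares to set beside the list counts that follow. They summed to 7514 and 7983 TPM (7748 ± 332, SD, n = 2), with a median log2 ratio of -0.19. Their median level was 34.9 TPM, below the 84.4 TPM of the 40 genes, so the lists differ in level as well as in membership.

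Among 22 genes of mitotic entry and its control, 12 were read in both libraries, 6 in 1 and 4 in neither. Arpp19, which shields mitotic phosphorylation from a phosphatase, led at 404 and 457 TPM, followed by the chromatin protein Rbbp4, a MuvB subunit, at 271 and 269 TPM. Of the 18 tested genes here, 6 had 3 or fewer counts in 1 library, beside 35.1% of the 9341 mouse genes. The 6 read in 1 library alone split 4 to replicate 1 and 2 to replicate 2. Lin52 (4671 and 0 counts) and Lin54 (0 and 2135 counts), subunits of MuvB, were read in opposite pups. Mybl2, the B-Myb factor that joins that complex, had 1828 and 0 counts. Pkmyt1, a kinase that inhibits Cdk1, had 2387 and 0 counts, and the phosphatase Cdc25a had 946 and 0. The centrosome kinase Nek2 had 0 and 3702 counts.

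In the remaining pathway lists the leading genes were mostly read in both pups. Of 17 tested genes of the anaphase-promoting complex and separase, 3 passed 4-fold each way, and the leaders were the subunits Anapc5 (254 and 401 TPM) and Cdc26 (285 and 98.4 TPM). Of 34 genes of the inner kinetochore, centromere and error correction, 7 were higher in replicate 1 and 4 in replicate 2. Cenpa, the histone H3 variant that marks centromeres, led them at 238 and 455 TPM, before the Mis12 complex subunit Pmf1 at 94.8 and 200 TPM. Of 16 other spindle genes 4 passed each way, with the spindle protein Tacc3 at 187 and 413 TPM and Ckap2l at 94.5 and 63.5 TPM. Of 9 cytokinesis genes 2 were higher in replicate 1 and 3 in replicate 2. The GTPase Rhoa stood at 121 and 292 TPM, and its activator Ect2, which centralspindlin recruits, had 0 and 10559 counts. Of 16 condensin and cohesin genes 1 was higher in replicate 1 and 6 in replicate 2, with the condensin subunits Smc4 at 240 and 192 TPM and Ncaph2 at 49.4 and 266 TPM.

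Genes of other cell cycle phases were measured for comparison. DNA replication genes summed to 4247 and 3106 TPM (3677 ± 806, SD, n = 2), with 9 of 37 tested genes 4-fold or more higher in replicate 1 and 7 in replicate 2, beside 21.5% and 29.4% of all tested mouse genes. G1 cyclins, CDKs and inhibitors summed to 2476 and 2397 TPM (2436 ± 55.6), with 4 of 18 each way. The order of the 3 lists by closeness between pups depended on the scale. In TPM the 40 mitotic genes had the smallest SD of the sum, 1.52. As a share of mouse counts they held 0.720% and 0.763%, the G1 genes 0.241% and 0.233%, and the replication genes 0.586% and 0.400%. No test of these differences was possible with 2 libraries.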

How the data were processed

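Total RNA of 2 thymuses was sequenced, 1 library from each pup, and groups follow the labels. The deposited tables hold an expected count and TPM for each gene and transcript, with posterior mean versions, posterior SDs and the percent of a gene's TPM held by each transcript (deposited column of percentages). The assembly was mm10 per the labels, with annotation M4 named in the deposited notes. No source used here gives the program or its strand setting. Effective lengths in the deposited tables fall 99 bases short of transcript lengths.

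Of 43346 mouse IDs, 42462 matched GENCODE M21 by ID, and 884 did not and carry no name here. TPM was rescaled to 1000000 over mouse genes. Spike-ins, 3.72% and 3.27% of counts, stayed out. Ratios used a pseudocount of 1 TPM, a minimum mean of 100 counts and a threshold of 4-fold. Their script was tested on simulated counts with counting error only and the same gene lengths in both libraries. That checks the calculation and says nothing about the spread between real libraries. Expected counts were rounded for edgeR 4.0.16 and DESeq2 1.42.0, used for scaling alternatives only. Other alternatives were posterior means, other pseudocounts, count minimums and folds, spike-ins kept, no mitochondrial genes, thinning and each library alone. Exons were compared in M21, and 100-base windows of the longest coding transcript were searched in all other transcripts. Analyses ran in python 3.11.15.

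The 40 genes, the pathway and marker lists and the promoter motifs were chosen with earlier results of these data known. Every one of the 40 is named. From each pathway list the text names the 2 genes of highest mean TPM, and from mitotic entry also those at 0 counts in 1 library with at least 10 in its partner. The labels do not say whether the pups' libraries were prepared apart. Positions are in GRCm38.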

Additional observations from a re-analysis of the deposited data

How the results depend on the processing

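Of 95 alternative values of the main results, 79 were labelled unchanged and 16 moved. Unchanged meant within the replicate SD for sums, within 1.5 times for counts, and within a fixed limit for the median log2 ratio. A sum from either library alone always lies within the SD of 2 libraries. Those values are among the 79 but say nothing about robustness. The sum of the 40 genes was 5831 TPM with posterior means, 5573 with spike-ins kept and 6213 without mitochondrial genes. In the same order the cyclin-CDK sum was 2435, 2329 and 2597 TPM, and the mitotic chromosome sum 506, 485 and 540 TPM. At 2-fold, 7 genes were higher in replicate 1 and 9 in replicate 2 (beside 2774 and 3547 of 9341 mouse genes), and at 8-fold 3 were higher in replicate 2 (beside 2249 mouse genes). At 10 or fewer counts in 1 library there were 5 genes, a limit at which the share of all mouse genes was not counted. After seeing the data, 2 alternatives were added. By counts without length correction the median log2 ratio was -0.16, and without genes overlapping another it was 0.19, with 0 genes higher in replicate 1. Of 367 values for single genes 5 moved and 0 reversed: Kif20a at -0.43 and Aurka at 1.63 with a pseudocount of 10 TPM, and Bub1b at 2.57 with edgeR factors, 2.63 with DESeq2 factors and 2.47 by counts scaled to equal totals. Bub1b thus joined the genes higher in replicate 2 by counts. With either library alone the sum was 5956 or 5958 TPM. No paired analysis was possible because there is 1 group.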
